A study of Thermothelomyces thermophilus ATCC 42464 with 8 samples.

Results

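In WT Myceliophthora thermophila, 1506 H3K9me3 peaks were found in both wild-type libraries and again in a strain without laeA. They were chosen by position from 3 peak lists. The entries of WT replicate 1 with equal chromosome, start and end were joined into 5846 peaks, and a peak was kept when it shared at least 1 bp with a peak of WT replicate 2 and at least 1 bp with a peak of ΔlaeA replicate 1. The kept peaks were 25.8% of the WT replicate 1 peaks. Of those peaks, 84.7% shared at least 1 bp with WT replicate 2 and 29.1% with ΔlaeA replicate 1. The peaks of these lists covered 12787251 and 989071 bp, so 1 bp is met far more easily in WT replicate 2. The shares therefore do not set replication against loss. The replicated peaks, 4954 in number, are those found in both WT lists. Of them 30.4% were kept, and the other 3448 are called missing peaks, which means only that the ΔlaeA replicate 1 list had no peak on them. Of the peaks that WT replicate 2 lacked, 193 were found in ΔlaeA replicate 1 and 699 in neither list.

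H3K9me3, trimethylation of lysine 9 of histone H3, is a mark of heterochromatin. In filamentous fungi such as Neurospora crassa it is bound by heterochromatin protein HP1 and is known from telomeres, centromeres and AT-rich repeats, where genes are few and mostly silent. LaeA is a putative methyltransferase that was first described in Aspergillus as a global regulator of secondary metabolism.

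The study asked whether H3K9 methylation changes when laeA is deleted. M. thermophila is a thermophilic filamentous fungus that degrades plant cell walls. The wild type was strain ATCC 42464, and in ΔlaeA, a laeA null strain, the coding region of the gene had been replaced by a selection marker. Mycelium of both strains was grown in 1×Vogel's salt with 2% glucose at 45 °C for 24 h. For each strain 2 ChIP libraries and 2 input libraries were made, and the inputs were not analysed here. How many transformants stand behind ΔlaeA, and whether the libraries of a strain came from separate cultures, is not given in the sources used here. The sample labels name the antibody ab8898 for WT and ab8902 for ΔlaeA, while the methods of the study name ab8898 alone. If the labels are right, strain and antibody cannot be told apart. The design text of the series speaks of H3K79me3, whereas its title and the labels give H3K9, and the latter is used here.

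The lists were not called alike, and this touches every value below. Each gives the pileup (the height of the fragment signal at the summit), its fold enrichment against the background around it, and −log10 of p and of q, the p adjusted over the genome. WT replicate 1 and ΔlaeA replicate 1, with 5846 and 3054 peaks of median length 301 and 261 bp, hold peaks past a p of 0.05, and 0 and 4 of these had a q under 0.05. WT replicate 2, with 3329 peaks of median length 1536 bp, holds peaks past a q of 0.05. The ΔlaeA replicate 2 list as held here, with 164 peaks, ends on chromosome 1 at 3058073, which leaves 7.89% of the genome for a second ΔlaeA reading. The depth of the libraries is unknown, since their totals were not used. The kept peaks were chosen by their presence in the 3 lists, so that their lengths, scores and folds in those lists are given as a description with no test. An exact permutation of 2 against 2 libraries could not give a two-sided p below 0.333. Peaks of a library are not replicates of a strain, and no test was made over them.

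Kept peaks lay on all 7 chromosomes and were densest on chromosomes 4, 5 and 6. Over the genome their density was 38.9 per Mb (1000000 bp), with chromosome length read as the farthest position of any peak or gene. Chromosome 1 held 223 kept peaks (20.4 per Mb) and chromosome 2 held 126 (23.1 per Mb), the lowest densities. Chromosomes 3 and 7 held 186 and 161 (36.7 and 39.1 per Mb), and chromosome 4 held 249 (52.9 per Mb). The densest were chromosome 5 with 282 (64.9 per Mb) and chromosome 6 with 279 (67.6 per Mb), 3.31 times the density of chromosome 1. The peaks of WT replicate 2 covered 22.1% of chromosome 2 and 52.0% of chromosome 6, the lowest and the highest shares, and the order of the chromosomes by kept density was nearly that by covered share, with chromosomes 1 and 2 and chromosomes 3 and 7 exchanged. Per Mb of WT replicate 2 peak, the kept density ran only from 86.6 on chromosome 1 to 134 on chromosome 4. The share of replicated peaks that were kept was more even still, between 26.0% on chromosome 3 and 33.1% on chromosome 4.

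**Figure D1:**
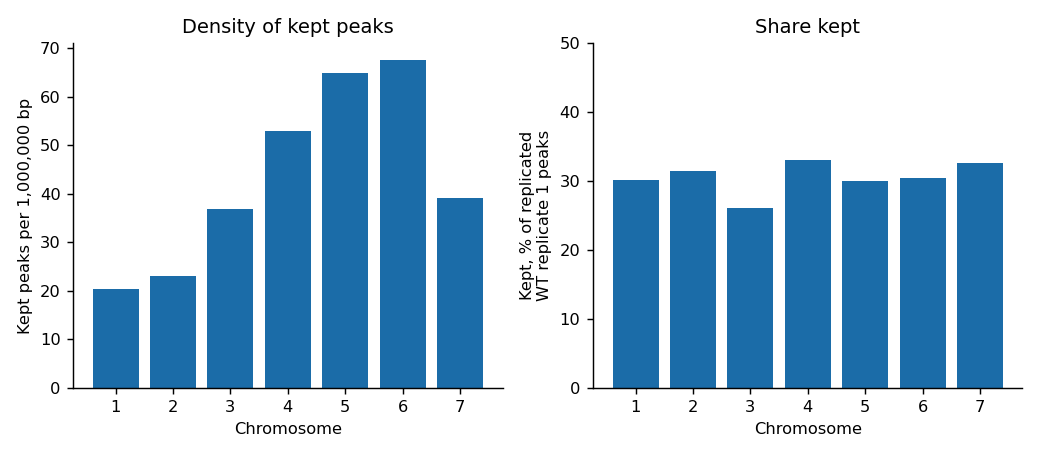
Kept peaks on the 7 chromosomes. Bars give kept peaks per 1000000 bp of chromosome (left) and the percentage of replicated WT replicate 1 peaks that were kept (right), and the density rose from 20.4 on chromosome 1 to 67.6 on chromosome 6 while the share stayed between 26.0% and 33.1%.

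Within a chromosome the kept peaks formed clusters. Of 392 windows of 100000 bp, 183 (46.7%) held no kept peak, and the 62 windows with at least 10 held 842 kept peaks, or 55.9% of them. The fullest window was on chromosome 4 from 4600001 to 4700000, with 28 kept and 34 missing peaks, 10142 bp from the right end. Next came windows on chromosome 5 from 3800001 to 3900000 with 22 kept peaks and on chromosome 3 from 4200001 to 4300000 with 21, and these lie well inside their chromosomes. The median gap between neighbouring kept peaks was 3948 bp, and 582 of 1499 gaps were no longer than 2000 bp, while the longest was 1637394 bp. Missing peaks were as many as or more than kept peaks in 11 of the 12 fullest windows, and the exception was chromosome 7 from 3800001 to 3900000 with 16 kept and 15 missing peaks.

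The outermost parts of the chromosomes were the places where peaks were kept most often. Of the kept peaks 136 (9.03%) lay within 50000 bp of a chromosome end, against 5.60% of the missing peaks and 6.06% of all WT replicate 1 peaks. These zones are 1.81% of the genome. The kept density was 194 per Mb in them and 36.0 per Mb elsewhere, and 41.3% of the replicated peaks in them were kept, against 29.6% elsewhere. The density fell with each step inwards, from 225 per Mb in the outermost 20000 bp over 82.9 per Mb between 100000 and 200000 bp to 21.5 per Mb farther in than 1000000 bp. The share kept in the same zones was 42.9%, 29.1% and 28.2%. Longer WT replicate 1 peaks were kept more often, so the shares were also read within classes of WT length. In each of the 5 classes a larger share of the kept than of the missing peaks lay within 50000 bp of an end. The widest distance was at lengths up to 200 bp (11.1% of 144 against 3.63% of 827). The smallest was at over 1000 bp (7.78% of 257 against 6.85% of 73), where the order rests on few end peaks. How much of this lies in the ends being densely marked in WT replicate 2, which covered between 33.8% and 92.8% of each outermost 50000 bp, was not tested.

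**Figure D2:**
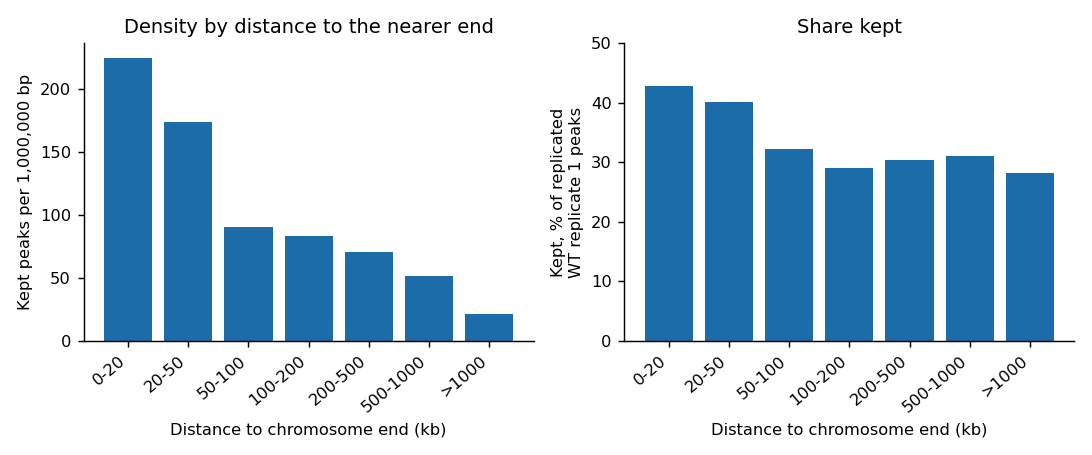
Kept peaks by distance to the nearer chromosome end, in kb. Bars give the density of kept peaks per 1000000 bp (left), which fell from 225 to 21.5, and the percentage of replicated WT replicate 1 peaks that were kept (right), which was 42.9% in the outermost 20 kb and 28.2% farther in than 1000 kb.

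Each of the 14 chromosome ends had kept peaks, and the nearest lay 71 to 8273 bp from the end with a median of 3087 bp. At the right end of chromosome 4 the nearest kept peak ran from 4709925 to 4710071 in WT replicate 1, 147 bp long and 71 bp from the end, and met a ΔlaeA replicate 1 peak of 307 bp that reached the last position. The WT replicate 2 peak there ran from 4705999 to 4709975 with a fold enrichment of 3.60. That end held 18 kept peaks within 50000 bp, more than any other, while the left end of chromosome 3 held the fewest with 3. At the left end of chromosome 5 the nearest kept peak ran from 112 to 416, was 305 bp long in WT replicate 1 and met a ΔlaeA replicate 1 peak of 359 bp from 81 to 439. At its right end the nearest ran from 4341519 to 4341764, 246 bp in WT and 215 bp in ΔlaeA replicate 1. This was the kept end peak in the WT replicate 2 peak of highest fold enrichment, 5.41 over 10110 bp. The nearest kept peak was farthest away at the right end of chromosome 7, at 8273 bp, and was 375 bp long in WT and 187 bp in ΔlaeA replicate 1.

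The WT replicate 2 peaks that held the kept peaks were long and strong for their list. Holding means only a shared length of at least 1 bp. Of the kept peaks 65.5% lay wholly inside their WT replicate 2 peak, against 81.6% of the missing peaks. Of the 3329 WT replicate 2 peaks, 1002 (30.1%) held at least 1 kept peak. Their median length was 2540.5 bp and their median fold enrichment 2.32. The 1009 peaks with missing peaks alone had medians of 1815 bp and 2.08, and the 1318 with no WT replicate 1 peak had 912.5 bp and 1.86. A long peak is more likely to be met by any other peak, so this order is partly made by the rule. Read per kept peak, where a long WT replicate 2 peak counts once for each kept peak in it, the medians were 4240 bp (interquartile range 1860 to 13317) and 2.59. The missing peaks lay in still longer and stronger peaks by this reading, with medians of 6699 bp and 2.72, so the comparison with the missing peaks turns with the way of counting.

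**Figure D3:**
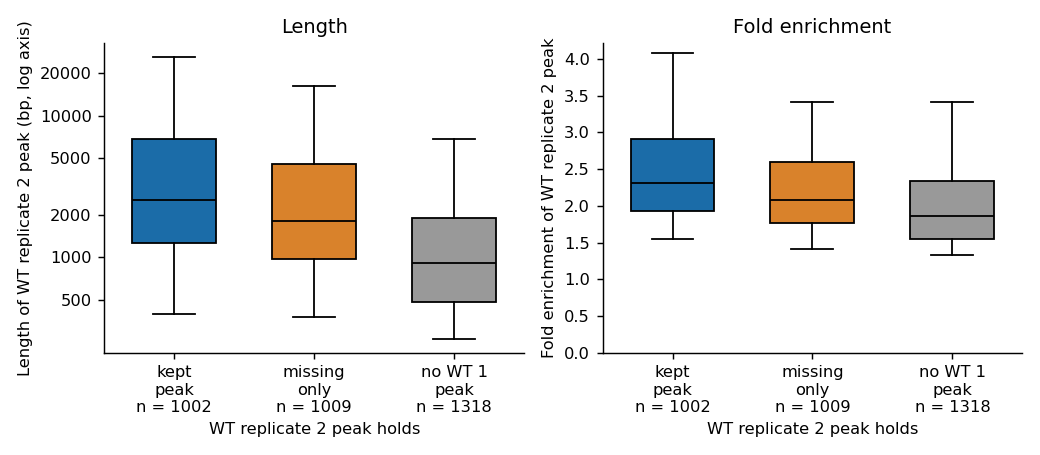
WT replicate 2 peaks that hold a kept peak (n = 1002), missing peaks only (n = 1009) or no WT replicate 1 peak (n = 1318). Boxes give the median and quartiles and whiskers the 5th and 95th percentiles of length in bp on a log axis (left) and fold enrichment (right), and the medians fell from 2540.5 to 912.5 bp and from 2.32 to 1.86.

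Length shows both sides of this. The share of WT replicate 2 peaks that held a kept peak was 16.1% at up to 1000 bp and 64.8% at over 20000 bp, and by fold enrichment it was 9.44% under 1.5 and 64.8% from 4 upwards. Yet of the replicated WT replicate 1 peaks that met WT replicate 2 peaks of up to 1000 bp, 38.6% were kept. For those of over 20000 bp this share was 21.6%. Here a peak counts once for each WT replicate 2 peak it met. With each peak given only to the WT replicate 2 peak of most shared bases, the shortest class had 153 kept and 290 missing peaks. The longest class then had 211 and 767. Counted once for each WT replicate 2 peak met, kept peaks numbered 2.92 per 10000 bp in the shortest and 0.619 per 10000 bp in the longest. All WT replicate 1 peaks thinned out as well, from 7.55 to 2.87 per 10000 bp. The longest domains of the mark thus held a kept peak most often, but few peaks of this list per length, kept or not. Most holders had only a single kept peak (681 of 1002), and 31 had at least 5.

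The largest groups of kept peaks within a single WT replicate 2 peak were within 100000 bp of a chromosome end in 3 of 5 places. On chromosome 1 the peak from 7166 to 41181 held 12 kept and 15 missing peaks, at a fold enrichment of 4.66 (−log10 q 152). On chromosome 7 the peak from 4001288 to 4029572 held 10 kept and 12 missing peaks at a fold enrichment of 4.64. On chromosome 4 the peak from 92122 to 127741 held 8 kept and 11 missing peaks at 4.43. Chromosome 5 had both others, far from an end. The peak from 3821911 to 3845331 held 12 kept and 7 missing peaks at a fold enrichment of 3.40, so that kept peaks were the majority there, and the peak from 3656005 to 3714662, 58658 bp long, held 9 kept and 14 missing peaks at 4.19.

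The WT replicate 2 peaks of highest fold enrichment with a kept peak lay within 50000 bp of a chromosome end in 7 of 10 cases. The first was on chromosome 1 from 10911210 to 10918359, at a fold enrichment of 5.60 (−log10 q 215), and held 2 kept and 2 missing peaks. One kept peak in it ran from 10914161 to 10914378 (218 bp) and had a −log10 p of 4.58 in WT replicate 1 and 1.75 in ΔlaeA replicate 1, where it was 159 bp long. On chromosome 6 the peak from 9902 to 26147 (fold enrichment 5.29) held 5 kept peaks, between 303 and 1301 bp long in WT replicate 1. Of these 5, 4 were shorter in ΔlaeA replicate 1, while the peak from 22648 to 22950 grew from 303 to 1350 bp. On chromosome 5 the peak from 224882 to 237043 (fold enrichment 4.97) lies farther in and held 6 kept peaks. The longest of these ran from 223452 to 226776, 3325 bp in WT replicate 1, and in ΔlaeA replicate 1 it was met by 3 separate peaks, the one with the most shared bases being 743 bp long. High folds in WT replicate 2 did not go with high folds in WT replicate 1. Over the 1506 kept peaks, which share libraries and clusters, Spearman's rho between their own fold and that of the WT replicate 2 peak was −0.226.

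The kept peaks were longer and scored higher in WT replicate 1 than the missing peaks. Their median length was 468.5 bp against 279 bp, and their median −log10 p was 2.53 against 1.98. Of replicated peaks up to 200 bp 14.8% were kept, and of those over 1000 bp 77.9% were. A longer peak has more bases to be met, so this follows in part from the rule. The highest −log10 p of a kept peak in WT replicate 1 was 8.46, on chromosome 3 from 4499602 to 4501395, where the ΔlaeA replicate 1 peak had 2.48 and shrank from 1794 to 784 bp. The highest in ΔlaeA replicate 1 was 8.83 (q under 0.05), on a kept peak of chromosome 7 from 7547 to 8245 that had 4.08 in WT replicate 1. Its length was 699 bp in WT and 709 bp in ΔlaeA, and it overlapped MYCTH_2071684, described as an RNA-dependent RNA polymerase, a kind of enzyme that makes double-stranded RNA for RNA silencing in fungi.

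The whole ΔlaeA replicate 1 list of 3054 peaks had 4 with a q under 0.05, and 54.1% of the list lay on kept peaks. A ΔlaeA replicate 1 peak with a q under 0.05 was met by 3 kept peaks. Besides the peak at the RNA-dependent RNA polymerase gene they were the peak at the right end of chromosome 4, described above, and a peak on chromosome 6 from 3149063 to 3150365 (1303 bp in WT, 1065 bp in ΔlaeA). The WT replicate 2 peak at the last of these was short and weak, 323 bp with a fold enrichment of 1.42. For 1200 kept peaks (79.7%) the ΔlaeA replicate 1 −log10 q was 0, close to the 83.8% of all ΔlaeA replicate 1 peaks with this value. The ΔlaeA peaks on kept peaks had a median −log10 p of 2.098, the same as in the whole ΔlaeA list, and a median fold enrichment of 1.43 against 1.41.

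Between the replicate 1 lists the kept peaks were shorter in ΔlaeA. The median length was 468.5 bp in WT and 307 bp in ΔlaeA, where the ΔlaeA peak with the most shared bases was taken. The median change per peak was −131.5 bp (interquartile range −440.8 to 41.75). Of the 1506 peaks 1038 (68.9%) were shorter in ΔlaeA, 464 (30.8%) were longer and 4 were equal. All peaks of these lists had medians of 301 and 261 bp, so the ΔlaeA list had the shorter median over all its peaks too. Where a single kept peak met a single ΔlaeA peak (1195 peaks) the median change was −116 bp, and with all ΔlaeA peaks on a kept peak added up it was −117.5 bp. Other rules moved it further, to −39 bp where the summit had to lie inside both peaks and to −246 bp with equal numbers of peaks in the replicate 1 lists, and it stayed below 0.

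The sign of the change depended on which list set the length class. Kept peaks of up to 200 bp in WT were longer in ΔlaeA by a median of 98 bp, those of 200 to 300 bp by 33 bp, and those of over 1000 bp shorter, with a median of −1034 bp. Classed by their length in ΔlaeA the order turned, from −207 bp at up to 200 bp to 418 bp at over 1000 bp. The lengths in the replicate 1 lists were only weakly related, with a Spearman's rho of 0.194 over the 1506 peaks, and the folds with 0.120. A long peak in either list therefore tended to meet a shorter one in the other, whichever strain it came from. On each chromosome the median change was below 0, from −175.5 bp on chromosome 3 to −64 bp on chromosome 7. It was −154.5 bp for the 136 kept peaks within 50000 bp of an end and −129.5 bp for the others.

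**Figure D4:**
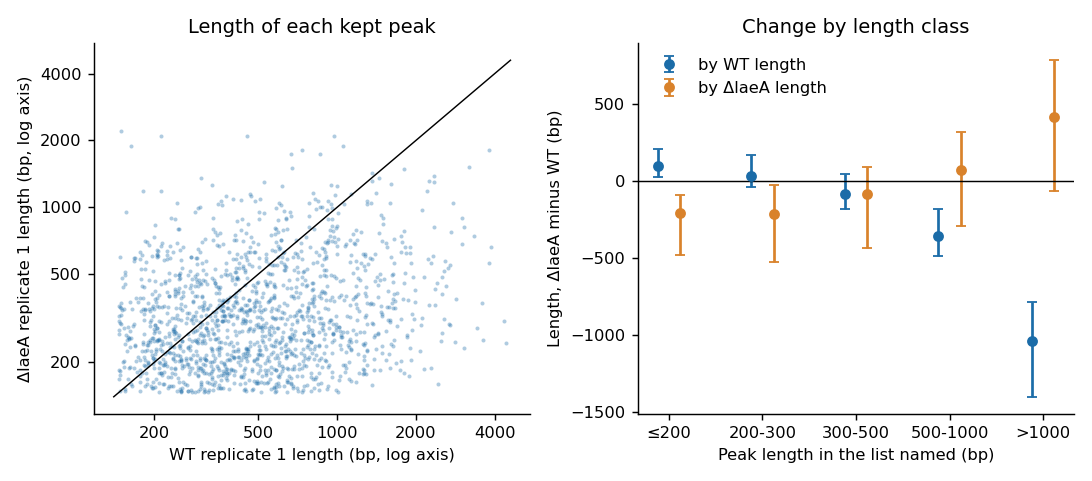
Length of the 1506 kept peaks in WT replicate 1 and ΔlaeA replicate 1 in bp on log axes, with the line of equal length (left), and the median change, ΔlaeA minus WT, with quartiles as bars, by length class in either list (right). Classed by WT length the median fell from 98 to −1034 bp, and classed by ΔlaeA length it rose from −207 to 418 bp.

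The largest losses were broad WT replicate 1 peaks over which ΔlaeA replicate 1 had short ones. On chromosome 2 the longest kept peak ran from 3047196 to 3051622, 4427 bp in WT, and met a ΔlaeA peak of 245 bp. WT replicate 2 also had a short peak there, of 389 bp from 3048870 to 3049258, so the length in WT replicate 1 was not shared by the other WT library. On chromosome 4 the kept peak from 323505 to 327379 was 3875 bp long, with 324 bp in WT replicate 2 and 4 ΔlaeA replicate 1 peaks on it, the main one of 662 bp. On chromosome 6 the kept peak from 3504276 to 3508096 was 3821 bp long, and its peaks in WT replicate 2 and ΔlaeA replicate 1 had 366 and 562 bp. On chromosome 1 the kept peak from 5963412 to 5967773 (4362 bp) and on chromosome 3 that from 614307 to 617910 (3604 bp) met longer WT replicate 2 peaks, of 3429 and 6365 bp, and ΔlaeA peaks of 307 and 252 bp. Counting all peaks on them, WT replicate 2 covered 389, 324 and 382 bp of the peaks on chromosomes 2, 4 and 6, so that 3 of the 5 largest losses were at WT replicate 1 peaks that the other WT library covered only in small part. Counted in the same way, ΔlaeA replicate 1 covered 245, 1919 and 1075 bp of these 3 peaks. It covered 450 and 252 bp of those on chromosomes 1 and 3. The kept peak on chromosome 6 from 1390614 to 1394408, 3795 bp long, completes the 5 longest. Its main ΔlaeA peak was 1804 bp long but ran past its end, and 4 ΔlaeA peaks together shared 1734 bp with it.

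Of the 5 largest gains 4 were WT replicate 1 peaks shorter than the kept median of 468.5 bp. On chromosome 4 the kept peak from 4513165 to 4513313 was 149 bp long in WT replicate 1, and the ΔlaeA replicate 1 peak on it ran from 4512002 to 4514207 (2206 bp). WT replicate 2 had a peak of 8807 bp there with a fold enrichment of 3.88, so this place was broadly marked in the other WT library. On chromosome 5 the kept peak from 762848 to 763010 (163 bp) met a ΔlaeA peak of 1888 bp inside a WT replicate 2 peak of 7239 bp. The other 3 of the 5 largest gains were a single ΔlaeA peak on chromosome 1 from 10748239 to 10750330 (2092 bp), which met WT replicate 1 peaks of 213, 454 and 975 bp and so counted 3 times. It shared only 2 bp with the first of these, from 10750329 to 10750541, which lay across the edge of its WT replicate 2 peak.

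The bases that the lists share were fewer than the peaks. Kept peaks summed to 983384 bp in WT replicate 1, of which 423139 bp (43.0%) were also in a ΔlaeA replicate 1 peak. The 1653 ΔlaeA peaks on them, 54.1% of that list, had 70.4% of their bases in kept peaks. The summits of WT and ΔlaeA lay a median of 164.5 bp apart, and 526 (34.9%) lay within 100 bp. At the threshold, the kept peaks on chromosome 5 from 3714722 to 3715516 and on chromosome 6 from 304291 to 304490 shared just 1 bp with ΔlaeA replicate 1, and the least overlap with WT replicate 2 was 5 bp, on chromosome 1 from 2737366 to 2737787. Just outside it, the missing peak on chromosome 4 from 283248 to 283777 had a ΔlaeA peak starting or ending at the next base, and the unreplicated peak on chromosome 5 from 1862668 to 1862858 came within 2 bp of a WT replicate 2 peak. Of the missing peaks 299 (8.67%) had a ΔlaeA replicate 1 peak within 200 bp, and 95 kept peaks shared under 50 bp with theirs.

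ΔlaeA replicate 2 was not used by the rule, and in it kept and missing peaks looked alike. On chromosome 1 up to 3058073, 70% of the 300 WT replicate 1 peaks shared at least 1 bp with a ΔlaeA replicate 2 peak. Of the 64 kept peaks there 56 (87.5%) did so, and of the 171 missing peaks 152 (88.9%). ΔlaeA replicate 1 had peaks on 27.2% of the 235 replicated peaks in this part and ΔlaeA replicate 2 on 88.5%. Of the 65 peaks that WT replicate 2 lacked there, 2 (3.08%) were met by ΔlaeA replicate 2. The answer to which WT peaks were present without laeA therefore turned on the ΔlaeA library, and the libraries also differ in calling threshold and in the signal scale, whose part in this was not tested.

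The 8 kept peaks that ΔlaeA replicate 2 did not meet lay mostly on short, weak peaks of WT replicate 2. The median length of those WT replicate 2 peaks was 799 bp and their median fold enrichment 1.71, against 3889.5 bp and 2.58 for the 56 kept peaks that were met. Neighbours on chromosome 1, from 2912045 to 2912475, from 2913898 to 2914432 and from 2915899 to 2916403, were 431, 535 and 505 bp long and had WT replicate 2 peaks of 245, 276 and 232 bp. The longest of the 8, from 477888 to 480713 (2826 bp), had a WT replicate 2 peak of 487 bp and a ΔlaeA replicate 1 peak of 246 bp. The kept peak from 2854268 to 2854419 differed from these, as its WT replicate 2 peak was 14394 bp long with a fold enrichment of 3.28, and the ΔlaeA replicate 2 peak there, from 2836548 to 2854106, ended 162 bp before it.

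The WT replicate 2 peaks with a kept peak were mostly met in ΔlaeA replicate 2, and more of them were shorter than longer there. Of 39 in this part of chromosome 1, 35 (89.7%) met a ΔlaeA replicate 2 peak, against 62 of 68 (91.2%) with missing peaks only and 71 of 93 (76.3%) with no WT replicate 1 peak. For those met, the median length was 2597 bp in WT and 2461 bp in ΔlaeA, with a median change of −184 bp, and 27 of the 35 were shorter in ΔlaeA. Single peaks changed more, with 11 of the 35 shorter and 4 longer by over 25%. Those with missing peaks only were shorter in 38 of 62 (median change −107.5 bp) and those with no WT replicate 1 peak in 33 of 71 (median change 27 bp). The domain from 7166 to 41181, with 12 kept peaks, ran from 7207 to 41052 in ΔlaeA replicate 2 and had fold enrichments of 4.66 and 7.01 within their own lists. That from 2797826 to 2808855, with 6 kept peaks, was 11030 bp long in WT and 10713 bp in ΔlaeA. By contrast the peak from 327612 to 360845, with 1 kept peak, was 33234 bp in WT replicate 2 and lay inside a ΔlaeA replicate 2 peak of 57951 bp.

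Gene bodies were read from a RefSeq table (assembly ASM22609v1) with 9097 protein-coding genes and no strand, so that no promoter could be set. The lists name no genome build. The edges of WT replicate 2 peaks lay within 100 bp of a gene boundary in 11.1% of cases as deposited and in 7.90% to 10.8% after shifts of up to 2000 bp, so the fit of the coordinates rests on a small margin. Of the kept peaks 683 (45.4%) overlapped a gene body, against 39.0% of the missing and 43.3% of all WT replicate 1 peaks. The order turned when the summit was taken, which lay in a gene body in 31.4% of the kept, 33.8% of the missing and 35.5% of all WT replicate 1 peaks. By bases, 33.7% of the kept and 38.1% of the missing peaks lay in gene bodies, while gene bodies make up 46.5% of the genome. Kept peaks were also the longer ones, and a longer peak meets a gene more easily. Within classes of WT length the overlap with gene bodies was mostly lower for kept than for missing peaks. At up to 200 bp it was 26.4% against 29.0%, and at 300 to 500 bp 37.3% against 42.7%. At 500 to 1000 bp it was 53.3% against 59.8%, and at over 1000 bp 67.7% against 78.1%. Only at 200 to 300 bp was the kept share the higher, with 32.4% against 31.9%.

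The overlap of kept peaks with genes differed with the strength of the mark in WT replicate 2 and fell from a fold enrichment of 2 upwards. Where the WT replicate 2 peak had a fold enrichment of 2 to 2.5, 71.4% of the kept and 71.9% of the missing peaks overlapped a gene body. Between 3 and 4 these shares were 19.9% and 10.2%, and from 4 upwards they were 15.8% and 10.03%. Below 2 the order was the other way round, with 59.9% of the kept and 70.8% of the missing peaks at 1.5 to 2. Kept peaks in strong domains were also shorter, with a median of 656 bp at 1.5 to 2 and 379 bp from 4 upwards. They were still longer than the missing peaks, with medians of 388 against 252.5 bp between 3 and 4 and 379 against 262 bp from 4 upwards. By summit the shares in gene bodies lay closer together, with 12.6% of the kept and 9.35% of the missing peaks between 3 and 4. From 4 upwards they were 9.87% and 7.60%. Within 50000 bp of an end, where the mark was dense, 58.8% of the kept peaks overlapped a gene body, against 44.0% of those farther in. The share of missing peaks in these end zones was not taken, so whether this is particular to kept peaks was not tested.

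**Figure D5:**
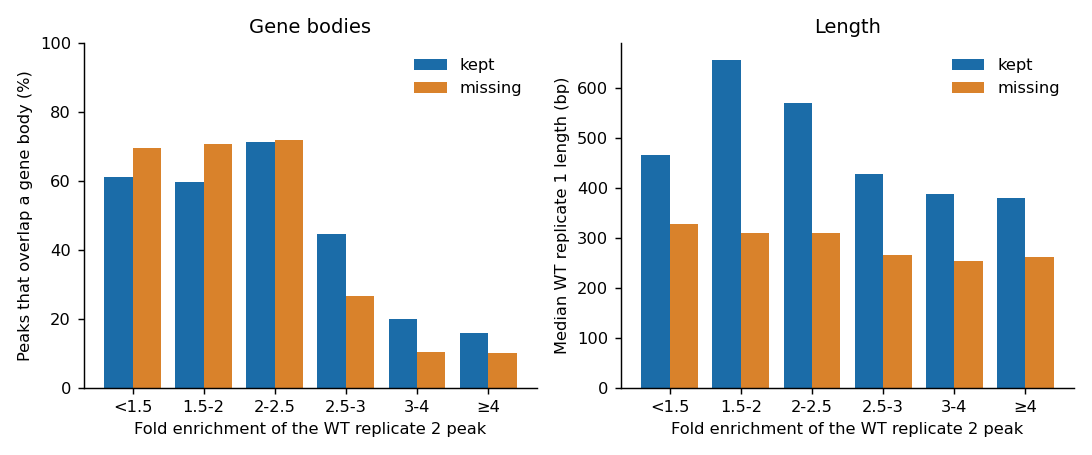
Kept and missing peaks by the fold enrichment of the WT replicate 2 peak that holds them. Bars give the percentage that overlapped a gene body (left), which for kept peaks was 71.4% at 2 to 2.5 and 15.8% from 4 upwards, and the median WT replicate 1 length in bp (right), which for kept peaks was 656 at 1.5 to 2 and 379 from 4 upwards.

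Kept peaks lay in the bodies of 620 genes, which is 6.82% of the 9097, and 238 of these genes also had a missing peak. Over all 9097 genes 996 had a missing peak. At least 2 kept peaks were found in 105 genes and at least 3 in 16. MYCTH_2121898 on chromosome 1 had the most, 5 kept peaks over 19.1% of its body, and no description was held for it. MYCTH_117478 on chromosome 7, described as a fungal transcriptional regulatory protein, had 4, which covered 8.26% of its body inside a WT replicate 2 peak of 16675 bp and a fold enrichment of 3.13. MYCTH_2071684, the RNA-dependent RNA polymerase gene near the left end of chromosome 7, had 3, which covered 28.6% of it. MYCTH_2053430 on chromosome 1, a member of the major facilitator superfamily of membrane transporters, had 3 over 17.0% of its body. In 179 genes kept peaks covered at least 50% of the body, and in 35 all of it.

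Descriptions were held for 1262 of the genes, and 103 of these (8.16%) had a kept peak. A missing peak was found in 172 of the 1262 and a WT replicate 2 peak in 423 (33.5%). Gene lists were set by words in the descriptions and miss genes described in other words. Of 40 genes found by the words transporter, permease, MFS or ABC 5 had a kept peak (12.5%), among them MYCTH_2069159, an amino acid permease on chromosome 6 that kept peaks covered by 60.02%, and MYCTH_2064798, a major facilitator near the left end of chromosome 4. The kept peak in the latter ran from 2467 to 3648, 1182 bp in WT and 269 bp in ΔlaeA replicate 1, inside a WT replicate 2 peak with a fold enrichment of 4.09. The sugar transporter genes were MYCTH_2057386 on chromosome 2 and MYCTH_103797 on chromosome 7, covered by 13.4% and 4.63%. Outside these words, MYCTH_2053430, MYCTH_2063854, MYCTH_2095369 and MYCTH_108475, described only as major facilitator superfamily, also had kept peaks. They are named for that reason alone, and genes so described without a kept peak were not counted. Of 22 genes found by words of secondary metabolism (such as polyketide, terpene, cytochrome P450 and methyltransferase) 3 had a kept peak, the cytochrome P450 genes MYCTH_101224 and MYCTH_112051, whose enzymes oxidise small molecules, and the methyltransferase gene MYCTH_103164, while 10 had a missing peak and 16 a WT replicate 2 peak. MYCTH_104726, described as a terpenoid synthase and not met by these words, had 2 kept peaks over 37.2% of its body. It too is named for its kept peaks, with no count of like genes beside it.

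Of 40 genes found by words for carbohydrate-active enzymes (such as glycoside hydrolase and carbohydrate-binding) 5 had a kept peak. These words miss MYCTH_102322, a polysaccharide lyase of family 3, MYCTH_103032, an arabinosidase, and MYCTH_114497, described as a beta-galactosidase, which also had kept peaks. Missed genes of this kind without a kept peak were not counted. Kept peaks covered 80.5% of MYCTH_102849, which codes for a protein with a family 18 carbohydrate-binding module, a module known for binding chitin. They covered 43.2% of MYCTH_2065851, a glycoside hydrolase of family 16, and 8.28% of MYCTH_112089, a glycoside hydrolase of family 61, the family now known as lytic polysaccharide monooxygenases that cut cellulose. Of 55 genes on the list of transcription factors 5 had a kept peak, and MYCTH_16152 (MYND-type zinc finger) and MYCTH_2069178 (RING-type zinc finger) among them belong to domain classes that mostly act in protein binding and ubiquitin transfer rather than as DNA-binding activators. MYCTH_2069178 was covered by 98.5%. None of the 12 described genes of mobile elements, reverse transcriptases and integrases, had a kept peak and 1 had a missing peak, although all 12 had a WT replicate 2 peak. On a list of 15 genes found by words for chromatin and for heterokaryon incompatibility, 2 had a kept peak. They were MYCTH_109232 with a chromo domain, the fold by which HP1 binds methylated lysine, and MYCTH_2071908, described as heterokaryon incompatibility, which concerns self and non-self recognition and not chromatin. These lists hold few genes each, were drawn from a part of the descriptions, and are given as counts beside the 8.16% of all described genes. For missing and WT replicate 2 peaks the counts over all 1262 described genes were 172 and 423.

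Of 7 regulators and enzymes at the centre of the study 0 had a kept peak in the body, beside 6.82% of all genes, so that few were to be met at this background. The nearest kept peak lay 278 bp from grf-3 (MYCTH_2309668) on chromosome 5, from 4305088 to 4305394. It was 14830 bp away for grf-2, 48916 bp for cre-1, the carbon catabolite repressor gene, and 76947 bp for grf-1. It was 68294 bp away for pck, the phosphoenolpyruvate carboxykinase gene of gluconeogenesis, and 306594 bp for fbp. For laeA itself (MYCTH_2294559) on chromosome 1 it was 230564 bp away, so no kept peak bears on the deleted gene, and peak lists do not show whether the gene is gone.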

How the data were processed

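The authors' peak lists of 2 H3K9me3 ChIP libraries of WT and 2 of ΔlaeA were used, with groups taken from the sample labels. Per the submitters' processing notes, Trimmomatic 0.36, Bowtie2 2.3.4.3, MACS2 2.1.2 and ChIPseeker 2.16.0 were used. Unique mappers were kept, and peaks were called library by library. Among the deposited values, pileup is a signal (fragment coverage at the summit), and fold enrichment is a ratio, pileup over the local background with a pseudocount of 1. The authors' −log10 p and −log10 q come from MACS2. Whole-number pileups made up 100% of entries in the replicate 2 lists but 0% in the replicate 1 lists, so the latter had been rescaled. Folds and scores are values within their own list, and where those of different lists stand side by side they are a description and no measure of change. Depth is unknown.

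Entries of equal position were joined with the highest score of each kind, and peaks were matched by a shared length of at least 1 bp. Where several peaks matched, the one with the most shared bases gave the length and fold. Chromosome ends were position 1 and the farthest position of any peak or gene. Gene names and bodies came from RefSeq (ASM22609v1) and descriptions from the words of a supplementary table of which 1262 genes were held. Named were the kept peaks in the 10 WT replicate 2 peaks of highest fold enrichment, the 5 longest, the 5 largest gains and losses, the nearest to each end, the 5 WT replicate 2 peaks with the most kept peaks, those of highest score or q under 0.05, genes with at least 2 kept peaks or 300 bp in them, 7 genes of the study and the genes of 7 lists by words of their descriptions. The windows, the threshold cases and the kept peaks that ΔlaeA replicate 2 did not meet were named after their values were seen. The members and lists were chosen with earlier results of these data known. The code was tested on simulated lists. The scripts ran on Python 3.11.15 with pandas 2.3.3, numpy 2.4.6, matplotlib 3.10.9 and scipy 1.17.1.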

Additional observations from a re-analysis of the deposited data

How the results depend on the processing

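Over 8 results, 90 values were recomputed, of which 34 stayed close to the reported value and 56 moved. A count stayed close when it differed by a factor of at most 1.5. Any other value stayed close when it lay inside a 95% interval of the reported one. That interval treats the peaks as independent, which they are not, so it is a yardstick and no test. Only the median length change could change sign, and it stayed below 0 at every setting that gave it. An overlap of at least 200 bp gave 736 kept peaks (20.2% of replicated peaks), a median length change of −238 bp, 48.6% in gene bodies and 93.5% met by ΔlaeA replicate 2. An overlap of 50% of the shorter peak gave 24.0% kept, a median WT replicate 2 peak of 4912 bp and fold 2.67, and −172.5 bp. With the summit inside both peaks there were 752 kept peaks (16.7%), with 5650 bp, fold 2.74, −39 bp, 38.8% in gene bodies and 94.6% met. A −log10 p of at least 2 gave 648 (25.4%), 3301.5 bp, fold 2.42, −239.5 bp and 52.3% in gene bodies. A WT replicate 2 fold of at least 3, which selects long domains by its construction, gave 543 (28.2%), 12.3% near ends, 16344 bp, fold 3.68, −78 bp, 18.8% in gene bodies and 95.5% met. Equal numbers of replicate 1 peaks gave 38.6% kept, 3476 bp, fold 2.44, −246 bp and 52.5% in gene bodies. End zones of 20000 and 100000 bp held 4.18% and 13.2% of the kept peaks. Each WT replicate 2 peak counted once gave 2540.5 bp and fold 2.32. Flanks of 500 and 1000 bp gave 56.8% and 63.9% at genes, and the summit alone 31.4%. For ΔlaeA replicate 2, an overlap of 200 bp gave 73.4% met and one of 50% gave 76.6%. Without 1 replicate, kept peaks numbered 208 to 1699, the share kept was 29.1% to 88.5%, the share near ends 6.37% to 14.4%, the WT replicate 2 peak 2702 to 5261 bp with a fold of 2.39 to 2.72, the share in gene bodies 44.0% to 60.6% and the share met 79.2% to 94.8%. The count of 208 and the shares of 88.5% and 14.4% are those without ΔlaeA replicate 1, over the start of chromosome 1 alone. Without WT replicate 1, the gene share was 60.6% and the median WT replicate 2 peak 2702 bp. There the unit changed, as WT replicate 2 peaks that met ΔlaeA replicate 1 were counted, out of all 3329. Without WT replicate 2 the share kept was taken over all 5846 WT replicate 1 peaks. The length change without WT replicate 2 was −121 bp. It has no value without either replicate 1 list, nor have the WT replicate 2 values without that list, nor the share met without ΔlaeA replicate 1. Splits by WT length and by distance to ends, and the summit, were added after the data were examined. For the other shifts the cause was not tested. No paired analysis was possible because the results come from no test and ΔlaeA replicate 2 covers only 7.89% of the genome. Unknown depth, the different thresholds and the single ΔlaeA library over most of the genome limit the comparison of the strains.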

Other observations

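The 193 WT replicate 1 peaks that ΔlaeA replicate 1 met but WT replicate 2 lacked had a median length of 363 bp, between the kept (468.5 bp) and the missing peaks (279 bp). Of them 33.7% overlapped a gene body and 81.3% did so with 1000 bp on either side, against 63.9% of the kept peaks, 58.8% of all WT replicate 1 peaks and 88.7% of the 699 peaks found in neither other list. Within 50000 bp of a chromosome end lay 4.66% of them. A WT replicate 2 peak was within 200 bp of 75 of the 193. In the start of chromosome 1, ΔlaeA replicate 2 met 1 of the 8 that lie there.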
